A study of Mus musculus with 2 samples.

Results

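The cells described here were Cd7-negative cells with the transcripts of conventional type 2 dendritic cells (cDC2), found among CD11c-selected cells from the tumour environment of PyMT mice. They were chosen by UMI counts (unique molecular identifiers, each counting 1 captured transcript), cell by cell. A member had at least 2 UMIs in the sum of Cd209a, Klrd1 and Mcemp1, at least 1 of H2-DMb2, and 0 of Cd7. The rule also asked for fewer than 2 UMIs of Fn1, of Fscn1 and of the sum of Xcr1 and Clec9a, and for C1qa, C1qb and C1qc together below 0.1% of the cell's UMIs. It further asked for 0 UMIs of Cd3g and Nkg7 and fewer than 3 in the sum of the cycling genes Top2a, Birc5, Ube2c and Cdk1. Every cell had at least 2000 UMIs and at most 10% of them from mitochondrial genes. Of 3173 cells, 166 were members (5.23%). Replicate 1 held 88 of 1958 cells, which is 4.49% (95% exact binomial interval 3.62 to 5.51), and replicate 2 held 78 of 1215 cells, which is 6.42% (5.11 to 7.95). These intervals cover counting error only.

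Dendritic cells take up antigen in tissue, load its peptides onto MHC molecules and present them to T cells. The cDC2 branch is known chiefly for presenting peptides on MHC class II to CD4 T cells. It is usually recognised in mice by Sirpa, Itgam, Clec10a, Mgl2 and Cd209a, and it depends on the cytokine receptor Flt3 for its supply from the bone marrow. On maturation, dendritic cells raise Ccr7, a chemokine receptor that guides them to the T cell zone of draining lymph nodes.

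The data were 2 droplet libraries of CD11c-selected cells, both labelled WT, from C57BL/6N mice of the PyMT model, in which the polyoma middle T oncogene drives mammary tumours. CD11c, encoded by Itgax, is carried by dendritic cells and also by many tumour macrophages. There was no treated or mutant group, so every comparison below is between kinds of cells within the same 2 libraries. The labels give neither age nor promoter, and do not say whether the libraries came from separate animals. With the library as a block, p-values measure only how group differences varied between these 2 libraries, pooled over the groups fitted. That spread may be technical. The libraries held 17369071 and 13317214 UMIs, and members had medians of 5932.5 and 8051.5 UMIs and 1549 and 1703.5 genes per cell, each pair of values being replicate 1 and replicate 2. The cell lists of the libraries shared 2 barcodes.

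For comparison, 3 further groups were gated from the same cells. The Ear2 Fn1 cells (139 and 70) had at least 2 UMIs of Fn1 and of Ear2 plus Retnla and low C1q. Their gate set no limit on the sum of Cd209a, Klrd1 and Mcemp1, and 58 of 209 held at least 2 Cd209a UMIs. The macrophages (928 and 522) had C1q at 0.5% or more of UMIs. They were also required to hold fewer than 2 UMIs in that sum. The Cd7-positive cells (32 and 48) met every term of the members' rule except that they held at least 1 Cd7 UMI. Gated cDC1-like cells (39 and 35) and cells with at least 2 Fscn1 UMIs (38 and 34) entered the fit but were not compared. Median UMIs per cell were 6460 and 7952 in the Ear2 Fn1 cells, 5073.5 and 6642.5 in the macrophages, and 6356.5 and 7311.5 in the Cd7-positive cells.

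Levels are in CPM, a gene's UMIs relative to all UMIs summed over a group in a library, scaled by the trimmed mean of M-values (TMM). The gate genes are given as a description, since they chose the members. Cd209a, a C-type lectin of cDC2 (GRCm38 chr8:3743397-3748984, minus strand), stood at 1163 and 1048 CPM. Klrd1, the CD94 chain of NK-type lectin receptors (chr6:129591782-129598775, plus strand), stood at 285 and 245 CPM. Mcemp1, a transmembrane protein first described in mast cells (chr8:3665754-3669259, plus strand), stood at 212 and 285 CPM, and H2-DMb2, a chain of the H2-DM peptide exchanger (chr17:34143307-34151555, plus strand), at 526 and 554 CPM. The gate was met through different genes in different members. All 3 genes of the sum had a UMI in 21 of 88 and 26 of 78 members, Cd209a alone in 18 and 10, Klrd1 alone in 2 and 4, and Mcemp1 alone in 5 and 3. Most members lay far above the threshold, with a sum of 6 or more UMIs in 62 and 55 of them and of exactly 2 in 5 and 4.

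The cells just inside and just outside the threshold on that sum were few. The 5 and 4 members at exactly 2 UMIs had unscaled Clec10a levels of 40.1 and 363 CPM and unscaled Lyz2 levels of 1965 and 3632 CPM. The 14 and 4 cells that failed by holding 1 UMI had Clec10a at 54.6 and 188 CPM and Lyz2 at 830.2 and 1955 CPM. A further 42 and 36 cells failed on H2-DMb2 alone. Another 26 and 11 failed on Fn1 alone, all of which held at least 2 UMIs of Ear2 plus Retnla. The latter cells were therefore among the Ear2 Fn1 cells. The Cd7 term set apart 32 and 48 cells, of which 14 and 12 held exactly 1 Cd7 UMI. Another 6 and 11 held 6 or more. A Cd7 count of 0 can depend on depth, so some members may carry Cd7 transcripts that were not captured. Median UMIs were 5932.5 and 8051.5 in members and 6356.5 and 7311.5 in Cd7-positive cells. The part of depth in this split was not tested. Cd7 itself (chr11:121036747-121039418, minus strand), a surface protein of T, NK and some dendritic precursor cells, stood at 434 and 619 CPM in the Cd7-positive cells.

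Lists of cell type markers were read against the name. Sums over marker lists, here and below, are unscaled CPM. The cDC2 list holds 11 markers, of which 4 (Cd209a, H2-DMb2, Klrd1 and Mcemp1) were gate genes whose level the rule set. The other 7 summed to 1157 and 1550.3 CPM in members, 641 and 997 CPM in Cd7-positive cells, 656 and 1185 CPM in Ear2 Fn1 cells and 586 and 466 CPM in macrophages. Members were higher than each of these groups within each library, and their range overlapped that of the Ear2 Fn1 cells across libraries. Of the 616 and 969 member UMIs of these 7 markers in replicate 1 and replicate 2, Mgl2 gave 1032 over both. Markers of B cells and erythroid cells were at 0 in members, and those of T cells, NK cells, neutrophils, mast cells and fibroblasts summed to under 10 CPM in each library (the rule itself set Cd3g and Nkg7 to 0). The 9 epithelial markers summed to 379.5 and 150.4 CPM, led by Wfdc18, and to 1652 and 193 CPM in Ear2 Fn1 cells. Members held 3 or more epithelial-marker UMIs in 31 of 88 and 6 of 78 cells. Of the 10 macrophage markers, 3 are the C1q genes, which gated both members and macrophages. The other 7 summed to 547 and 342 CPM in members, 737 and 394 CPM in Ear2 Fn1 cells and 29673 and 35893 CPM in macrophages, led by Apoe in each. The 8 classical monocyte markers summed to 1110.3 and 736 CPM in members, led by Plac8. No member was among the 31 and 12 cells with the highest doublet scores. The name cDC2-like was kept, with the reservation that members differed widely in Ear2, Plac8 and Ccr7, as described at the end.

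**Figure D1:**
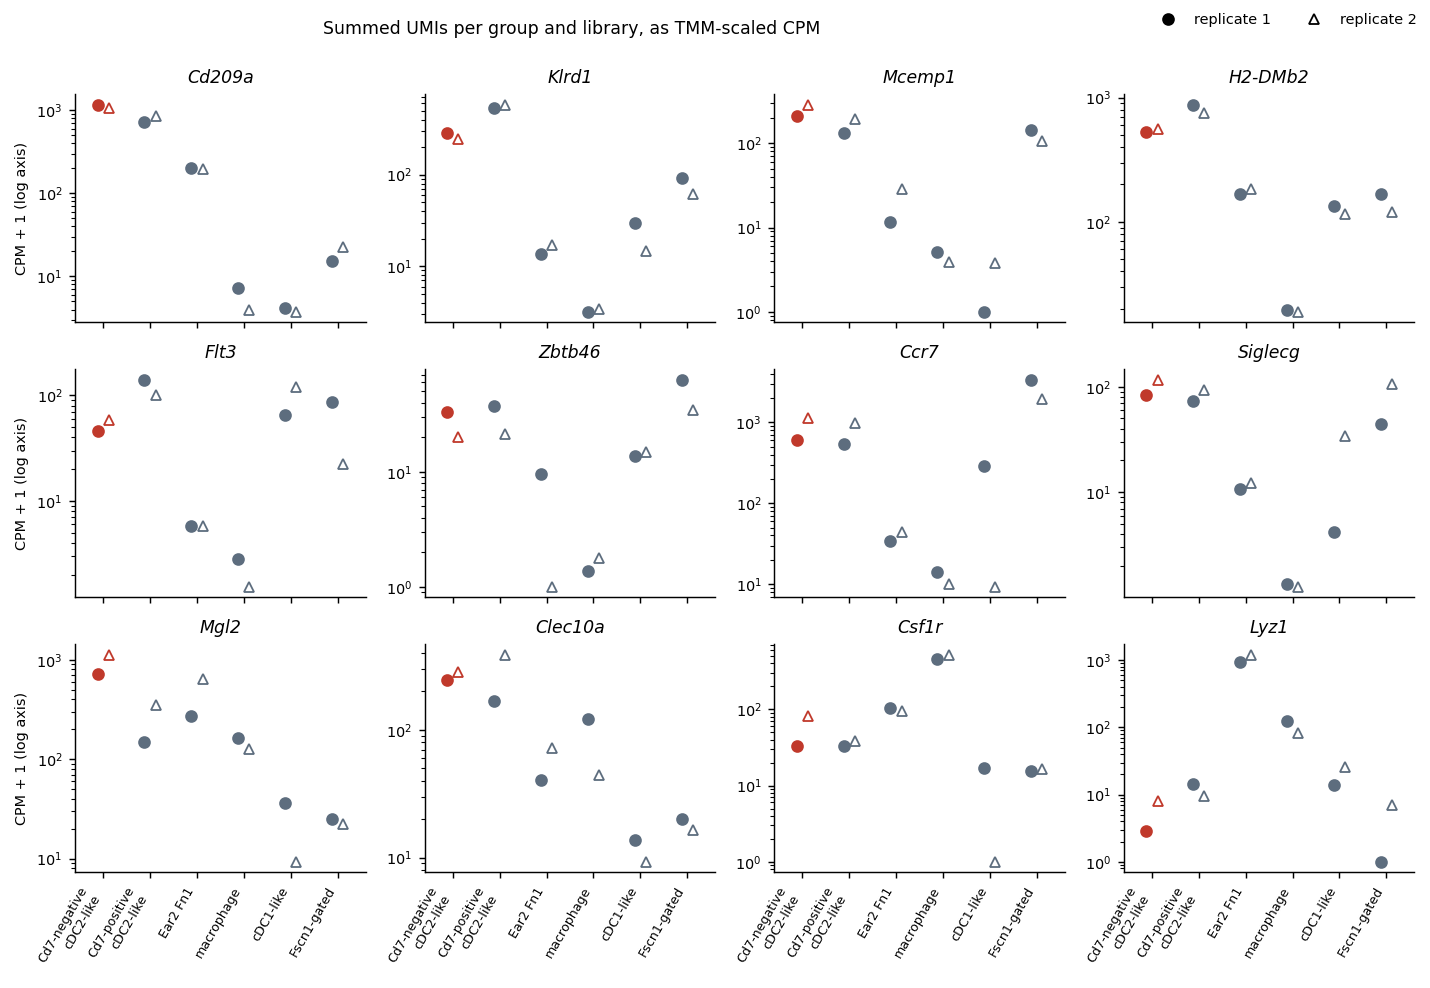
Level of 12 genes in 6 gated groups, with 1 point per library on a log axis of CPM + 1 (TMM-scaled summed UMIs). Flt3, Ccr7 and Clec10a lie higher in both libraries of the Cd7-negative cells than in the Ear2 Fn1 cells and the macrophages, and Lyz1 lies lower than in the Ear2 Fn1 cells.

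Against the Ear2 Fn1 cells, members carried more of the MHC class II pathway, of Ccr7 and of Il1r2, and less of Lyz1, Lpl and Ctsd. Of 5213 genes tested, 321 rose in members (6.16%) and 219 fell (4.2%), 10.4% in all, at an adjusted p under 0.05, by edgeR's quasi-likelihood test with Benjamini-Hochberg adjustment. The median log2 fold over all genes tested was -0.01. Gate genes, Ear2, Retnla and mitochondrial genes were left out of every test. Both groups were gated in the cells that were tested, so these differences describe the gated groups. The fibroblast markers summed to 5.64 and 9.6 CPM in members and 3867 and 18.3 CPM in Ear2 Fn1 cells, and with all cells of 3 or more such UMIs left out the counts were 584 and 450. The epithelial markers, given above, also differed, and their part in the result was not tested.

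Most of the MHC class II genes rose. Of the 11 tested, 8 rose and none fell, with a median log2 fold of 1.06, against 6.16% of all genes that rose. The risen genes were H2-Aa, H2-Ab1, H2-Eb1, H2-Eb2, H2-Oa, H2-Ob, Cd74 and Ifi30. H2-Oa (chr17:34092340-34095234, plus strand) encodes a chain of H2-O, which restrains the peptide exchanger H2-DM in B cells and some dendritic cells. It stood at 247 and 238 CPM in members and 8.66 and 6.41 CPM in Ear2 Fn1 cells (log2 fold 4.93 ± 0.29 SE, adjusted p = 1.3e-05). The groups were far apart in both libraries, and the gene was called under every one of 14 other settings. H2-Ab1, the beta chain of the presenting molecule I-A, stood at 17562 and 22123 CPM in members and 8536 and 12900.0 CPM in Ear2 Fn1 cells (log2 fold 0.90 ± 0.17 SE, adjusted p = 0.00935). Cd74, the invariant chain that escorts class II molecules, stood at 9557 and 14954 CPM in members and 4930.0 and 8629 CPM in Ear2 Fn1 cells (log2 fold 0.87 ± 0.22 SE, adjusted p = 0.031). The rise of the presenting chains was thus smaller than that of H2-Oa, and both groups carried them at high levels. H2-Eb2 had 22 UMIs in members and 1 in Ear2 Fn1 cells, a pooled ratio of 29.8 with a counting interval of 4.82 to 1232. Of the 11 MHC class I genes tested, B2m, H2-K1 and H2-D1 rose and none fell.

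The promoter windows of H2-DMb2, H2-Oa and H2-Ob are shown because H2-DMb2 was in the gate and H2-Oa and H2-Ob, other class II accessory genes, rose in the test. Each runs from 250 bases before to 50 after the RefSeq start on GRCm38.p6, on the plus strand of chromosome 17, and capitals mark ATTGG, the reverse complement of the CCAAT letters known as the Y box of class II promoters. The windows are chr17:34144999-34145298 for H2-DMb2, chr17:34092129-34092428 for H2-Oa and chr17:34238655-34238954 for H2-Ob.
H2-DMb2: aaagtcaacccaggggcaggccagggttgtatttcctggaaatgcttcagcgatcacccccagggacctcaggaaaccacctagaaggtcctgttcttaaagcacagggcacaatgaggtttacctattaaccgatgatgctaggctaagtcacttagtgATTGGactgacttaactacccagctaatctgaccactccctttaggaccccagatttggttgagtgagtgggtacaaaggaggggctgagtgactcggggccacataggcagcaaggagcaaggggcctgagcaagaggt
H2-Oa: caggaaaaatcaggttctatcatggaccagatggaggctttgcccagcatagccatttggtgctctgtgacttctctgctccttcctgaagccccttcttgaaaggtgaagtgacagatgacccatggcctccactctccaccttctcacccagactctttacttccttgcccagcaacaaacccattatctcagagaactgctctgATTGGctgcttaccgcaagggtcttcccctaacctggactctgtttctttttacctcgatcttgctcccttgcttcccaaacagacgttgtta
H2-Ob: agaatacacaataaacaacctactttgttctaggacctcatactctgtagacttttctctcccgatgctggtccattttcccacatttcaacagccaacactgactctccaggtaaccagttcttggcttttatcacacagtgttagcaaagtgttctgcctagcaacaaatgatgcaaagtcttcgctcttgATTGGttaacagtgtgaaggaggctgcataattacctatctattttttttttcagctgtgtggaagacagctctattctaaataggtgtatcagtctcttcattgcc
Each window held the letters once, starting 90, 43 and 57 bases before the start in H2-DMb2, H2-Oa and H2-Ob. ATTGG or CCAAT, on either strand, was found in 12289 of all 32851 RefSeq promoter windows of that length (37.4%), so the match is common. The RefSeq start of H2-DMb2 lies inside the longer GENCODE gene (chr17:34143307-34151555).

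Flt3 and Clec10a rose in members, while transcription factors of dendritic cells moved both ways. Flt3, the receptor for the dendritic cell growth factor Flt3 ligand (chr5:147330741-147400489, minus strand), stood at 44.9 and 57 CPM in members and 4.81 and 4.81 CPM in Ear2 Fn1 cells (log2 fold 3.41 ± 0.68 SE, adjusted p = 0.0113). Clec10a, a C-type lectin of cDC2, stood at 245 and 282 CPM in members and 39.4 and 70.5 CPM in Ear2 Fn1 cells (log2 fold 2.30 ± 0.52 SE, adjusted p = 0.0192). The groups did not overlap for either gene. Of 15 tested transcription factor and growth genes of dendritic cells, 5 rose (Spi1, Runx3, Flt3, Relb and Irf8) and 3 fell (Batf3, Rbpj and Irf4), with a median log2 fold of 0.86. Irf8, a factor best known for cDC1 development, stood at 69.3 and 53.5 CPM in members and 14.4 and 12.8 CPM in Ear2 Fn1 cells (log2 fold 2.21 ± 0.59 SE, adjusted p = 0.039), and Irf4, a factor associated with cDC2, stood at 22.5 and 19 CPM in members and 50 and 119 CPM in Ear2 Fn1 cells (log2 fold -1.96 ± 0.51 SE, adjusted p = 0.0387). Irf4 therefore ran against the cDC2 label in this comparison, as did Itgam, which also fell. Without the library as a block Irf8 missed the threshold (adjusted p = 0.0826), as did Cd74 (adjusted p = 0.147). Irf8 also missed it by edgeR with at least 4 UMIs asked of the gate sum (adjusted p = 0.0558). Irf4 missed it among cells of 4000 or more UMIs (adjusted p = 0.0541). Zbtb46, a transcription factor of conventional dendritic cells, missed the threshold (log2 fold 2.39, adjusted p = 0.0655), as did Mgl2 (1.07, adjusted p = 0.133), Sirpa (-0.34, adjusted p = 0.577) and the selection marker Itgax (0.87, adjusted p = 0.0526).

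Ccr7 (chr11:99144196-99155077, minus strand) stood at 605 and 1121 CPM in members and 32.7 and 43.3 CPM in Ear2 Fn1 cells (log2 fold 4.57 ± 0.89 SE, adjusted p = 0.01). Il1r2, the decoy receptor for interleukin-1, stood at 577 and 1116 CPM in members and 26 and 54.5 CPM in Ear2 Fn1 cells (log2 fold 4.41 ± 0.28 SE, adjusted p = 1.35e-05). Members of both libraries lay above the Ear2 Fn1 cells in both genes. Ccr7 was not detected in every member. With the 90 members holding 2 or more Ccr7 UMIs left out, an alternative chosen after seeing the data, the counts over all genes were 74 and 45. In that setting Flt3, Clec10a, H2-Ab1, Cd74, Tbc1d4, Irf8, Irf4 and Gpr183 missed the threshold. The log2 folds of Flt3 (3.27 against 3.41 as reported), Clec10a (2.14 against 2.30), H2-Ab1 (0.84 against 0.90) and Cd74 (0.78 against 0.87) were about as large. Those of Irf8 (1.09 against 2.21) and Gpr183 (1.70 against 2.95) were smaller. H2-Oa, Il1r2, Lyz1, Lpl and Cxcl16 passed the threshold there. With the fibroblast-marker cells left out as well, the counts were 275 and 242, and Flt3, Clec10a, H2-Ab1, Cd74 and Tbc1d4 passed again, whereas Irf8, Irf4, Gpr183 and H2-Eb2 did not. Tbc1d4, a Rab GTPase-activating protein of vesicle traffic, stood at 125 and 199 CPM in members and 9.62 and 8.02 CPM in Ear2 Fn1 cells, and Gpr183, the oxysterol receptor that positions cDC2 in spleen, at 39.3 and 27.6 CPM in members and 5.77 and 1.6 CPM in Ear2 Fn1 cells (log2 fold 2.95, adjusted p = 0.0146). Of 11 migration receptors tested, Ccr7, Gpr183 and Itgb7 rose and Ccr2 fell.

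Several costimulatory genes, Ltb and Cxcl16 rose as well. Of 13 costimulation and checkpoint genes tested, 6 rose (Cd40, Cd83, Cd86, Pvr, Tnfsf9 and Havcr2) and 1 fell (Vsir), with a median log2 fold of 1.36. Tnfsf9, the ligand of a costimulatory receptor of T cells, stood at 30 and 51.8 CPM in members and 5.77 and 4.81 CPM in Ear2 Fn1 cells (log2 fold 2.87 ± 0.44 SE, adjusted p = 0.00344), and Havcr2, the checkpoint receptor Tim-3, at 74.9 and 50.1 CPM in members and 7.7 and 4.81 CPM in Ear2 Fn1 cells (log2 fold 3.22 ± 0.43 SE, adjusted p = 0.00196). Ltb, the membrane chain of lymphotoxin, stood at 37.4 and 34.5 CPM in members and 3.85 and 0 CPM in Ear2 Fn1 cells (log2 fold 3.97, adjusted p = 0.0113). No library of members overlapped the Ear2 Fn1 cells in these 3 genes. Cxcl16, a membrane-bound chemokine for Cxcr6-positive T cells, stood at 629 and 791 CPM in members and 100.1 and 104 CPM in Ear2 Fn1 cells (log2 fold 2.80 ± 0.31 SE, adjusted p = 0.000957). Ifitm1, an interferon-induced membrane protein, stood at 101 and 418 CPM in members and 10.6 and 6.41 CPM in Ear2 Fn1 cells and rose (log2 fold 4.52 ± 0.65 SE, adjusted p = 0.00264). The member libraries differed from each other in Ifitm1, and both lay above the Ear2 Fn1 cells.

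Lyz1, Lpl, Ctsd, Ccl6 and Ccr2 fell in members. Lyz1, a lysozyme, stood at 1.87 and 6.91 CPM in members and 944 and 1202 CPM in Ear2 Fn1 cells (log2 fold -7.87 ± 0.48 SE, adjusted p = 1.3e-05), the largest fall among genes with more than 3 UMIs in members that the naming rule chose. Lpl, lipoprotein lipase, stood at 1.87 and 20.7 CPM in members and 592 and 507 CPM in Ear2 Fn1 cells (log2 fold -5.53 ± 0.77 SE, adjusted p = 0.00245). The coagulation factor gene F10 had 3 UMIs in members, a pooled ratio of 56.3 in favour of the Ear2 Fn1 cells (counting interval 19 to 275), and F13a1 had 1 UMI, a pooled ratio of 87.7 (15.4 to 3494). Lpl and F13a1 are also on the marker list of the Ear2 Fn1 cells. Ctsd, the lysosomal protease cathepsin D, stood at 91.7 and 93.3 CPM in members and 483 and 434 CPM in Ear2 Fn1 cells (log2 fold -2.32 ± 0.26 SE, adjusted p = 0.000957), and Ccl6, a CC chemokine of myeloid cells, at 303 and 369.6 CPM in members and 2717 and 3289.5 CPM in Ear2 Fn1 cells (log2 fold -3.16 ± 0.41 SE, adjusted p = 0.00184). Ccr2, the receptor by which monocytes leave the bone marrow, stood at 101 and 91.5 CPM in members and 234 and 239 CPM in Ear2 Fn1 cells (log2 fold -1.29 ± 0.18 SE, adjusted p = 0.00245). Of 13 monocyte genes tested, 5 fell (Clec4e, Lyz2, Ccr2, F13a1 and Cd14), 2 rose (Plac8 and Ms4a4c) and 6 did not pass the test.

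**Figure D2:**
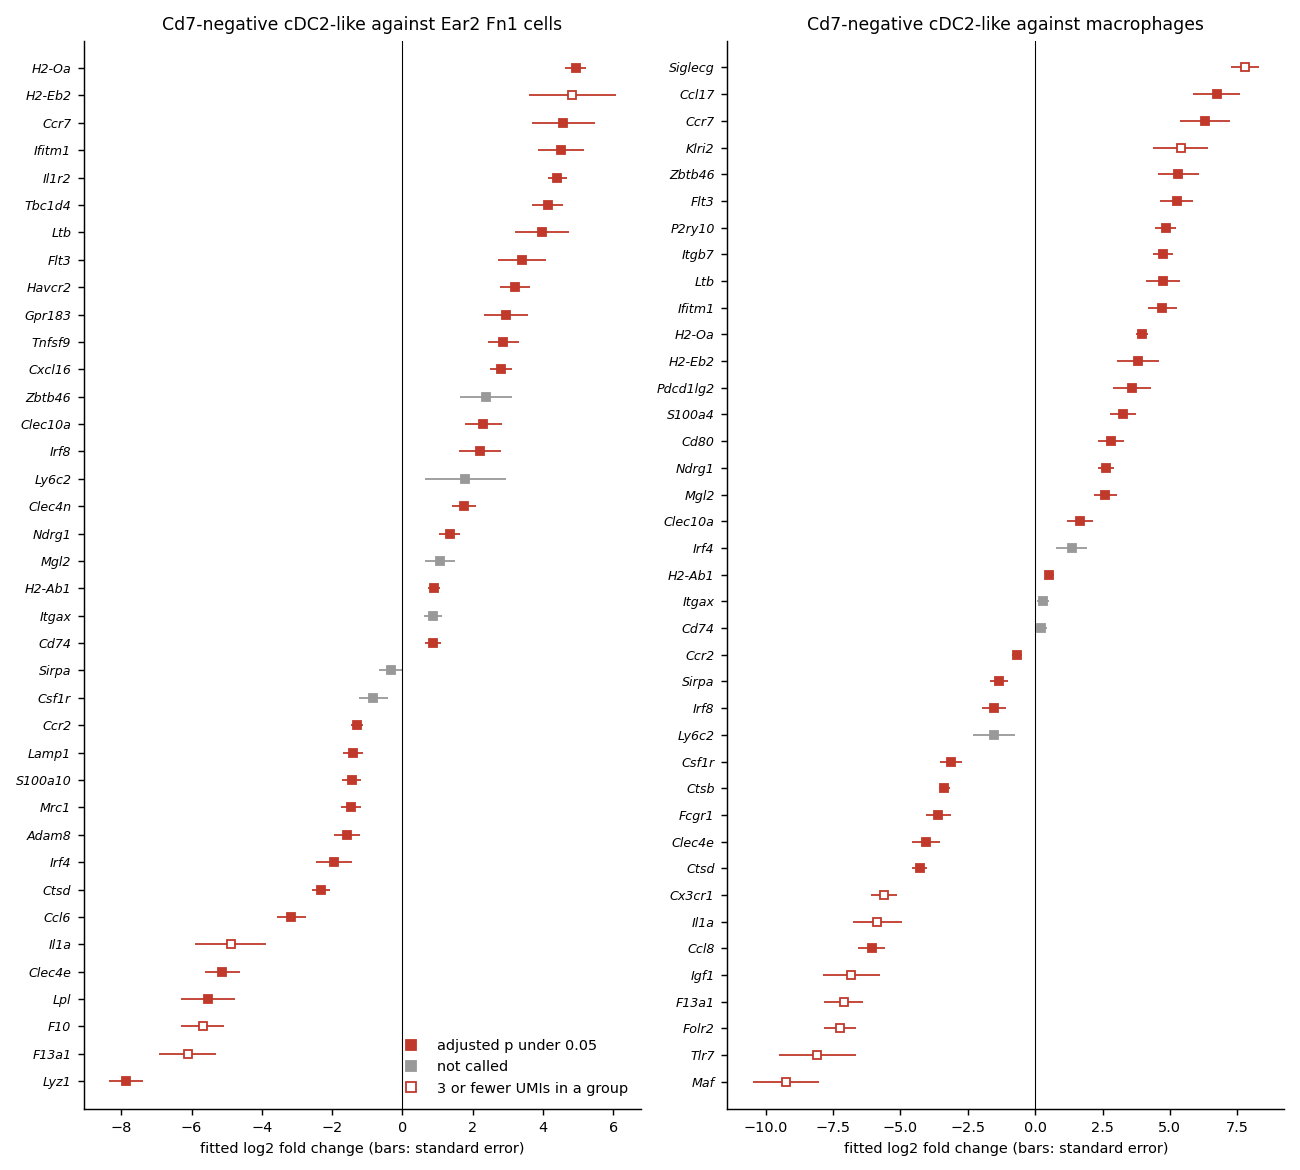
Fitted log2 fold of those genes of the naming rule that the text names, members against Ear2 Fn1 cells and members against macrophages, with bars of ± 1 SE. Red points passed an adjusted p of 0.05, grey points did not, and hollow points had 3 or fewer UMIs in a group, so their fold depends on the prior count. H2-Oa is at 4.93 and Lyz1 at -7.87 in the comparison with Ear2 Fn1 cells.

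Against the macrophages, members had more of Flt3, Zbtb46, Ccr7 and Ccl17 and less of the macrophage and lysosomal genes. Of the 5213 genes, 612 rose (11.7%) and 611 fell (11.7%), 23.5% in all, with a median log2 fold over all genes of -0.06. The member sums are the ones used above, so the comparisons are not independent of each other.

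Zbtb46 stood at 31.8 and 19 CPM in members and 0.362 and 0.799 CPM in macrophages (log2 fold 5.31 ± 0.76 SE, adjusted p = 0.00065) and Flt3 at 44.9 and 57 CPM in members and 1.81 and 0.533 CPM in macrophages (log2 fold 5.25 ± 0.61 SE, adjusted p = 0.000196). Both genes, which mark the conventional dendritic lineage, were near 0 in macrophages. Mgl2, a lectin of cDC2 and of some macrophages, stood at 713 and 1124 CPM in members and 161 and 124 CPM in macrophages (log2 fold 2.60 ± 0.43 SE, adjusted p = 0.00155), and Clec10a at 245 and 282 CPM in members and 121 and 43.2 CPM in macrophages (log2 fold 1.66 ± 0.47 SE, adjusted p = 0.0267). Sirpa, an inhibitory receptor carried by cDC2 and macrophages, stood at 46.8 and 81.2 CPM in members and 158 and 164 CPM in macrophages (log2 fold -1.34 ± 0.32 SE, adjusted p = 0.0119). Irf8 was also lower, at 69.3 and 53.5 CPM in members and 193 and 154 CPM in macrophages (log2 fold -1.51 ± 0.45 SE, adjusted p = 0.0327), although it was higher than in Ear2 Fn1 cells. The Irf8 call was lost without the library as a block (adjusted p = 0.0746) and without the Ear2-bearing members described at the end. Itgax (log2 fold 0.29, adjusted p = 0.426) and Irf4 (1.36, adjusted p = 0.122) missed the threshold. Siglecg, an inhibitory sialic acid receptor (chr7:43408204-43418358, plus strand), had 111 UMIs in members and 3 in macrophages, a pooled ratio of 287 with a counting interval of 95.6 to 1411. Of 11 class II genes, 6 rose and Ctss fell. H2-Oa stood at 247 and 238 CPM in members and 14.1 and 17 CPM in macrophages (log2 fold 3.96 ± 0.23 SE, adjusted p = 2.44e-06), whereas Cd74 missed the threshold (log2 fold 0.23, adjusted p = 0.498). H2-Ab1 passed as reported (log2 fold 0.52, adjusted p = 0.049) but missed the threshold under 9 of the other settings.

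Chemokines and their receptors divided the groups. Ccl17, a ligand of Ccr4 made by dendritic cells, stood at 225 and 924 CPM in members and 6.51 and 3.46 CPM in macrophages (log2 fold 6.73 ± 0.89 SE, adjusted p = 0.000379), and Ccr7 at 605 and 1121 CPM in members and 13.2 and 9.06 CPM in macrophages (log2 fold 6.31 ± 0.92 SE, adjusted p = 0.000706). Of 16 chemokines tested, Ccl17 and Ccl22 rose and 7 fell: Ccl2, Ccl3, Ccl4, Ccl7, Ccl8, Ccl12 and Cxcl2. Ccl8 stood at 59.9 and 22.5 CPM in members and 4376 and 1383 CPM in macrophages (log2 fold -6.07 ± 0.50 SE, adjusted p = 2.81e-05). Cx3cr1, the fractalkine receptor, had 3 UMIs in members and a pooled ratio of 52.6 in favour of macrophages (18 to 256). Itgb7, an integrin chain of mucosal homing receptors, stood at 208 and 149 CPM in members and 8.68 and 4 CPM in macrophages (log2 fold 4.76 ± 0.37 SE, adjusted p = 1.9e-05). Ccr2 was slightly lower (log2 fold -0.67, adjusted p = 0.0187), a call lost under 4 other settings.

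Genes usually linked to lymphoid cells were higher than in macrophages. Of 9 such genes tested, 6 rose (Il2rg, P2ry10, Klrb1b, Klrk1, Klri2 and Ltb) and none fell, with a median log2 fold of 2.74. P2ry10, a lysophospholipid receptor, stood at 159 and 179.6 CPM in members and 5.24 and 6.39 CPM in macrophages (log2 fold 4.84 ± 0.38 SE, adjusted p = 2e-05), and Ltb at 37.4 and 34.5 CPM in members and 1.45 and 1.07 CPM in macrophages (log2 fold 4.75 ± 0.63 SE, adjusted p = 0.00058). The rule had left out every cell with a UMI of Cd3g or Nkg7, so low T cell and NK cell markers in members follow in part from the gate. Without these 2 genes, the T cell markers summed to 1.88 and 3.2 CPM in members. The NK cell markers summed to 1.88 and 0 CPM, with the 7 other than Nkg7 at 0 in replicate 2. The costimulatory ligands Cd80 and Pdcd1lg2 (PD-L2) rose, at log2 folds of 2.83 and 3.60. Of 11 S100 and annexin genes tested, 5 rose, among them S100a4 at 2129 and 2757 CPM in members and 239.9 and 273 CPM in macrophages (log2 fold 3.25 ± 0.49 SE, adjusted p = 0.000846), and 3 annexins fell.

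The macrophage list fell whole: 19 of 19 genes tested, with a median log2 fold of -5.17, in a contrast whose gate was set on C1q. Csf1r, the receptor of the macrophage growth factor CSF1, stood at 31.8 and 81.2 CPM in members and 452 and 517 CPM in macrophages (log2 fold -3.11 ± 0.40 SE, adjusted p = 0.000332). Maf, a macrophage transcription factor, had 0 UMIs in members and was at least 26.9-fold lower, taking 3 UMIs over the group as the floor. Folr2, the folate receptor beta of resident macrophages, had 1 UMI in members and a pooled ratio of 196 in favour of macrophages (counting interval 35.1 to 7749), and Igf1, a growth factor, had 1 UMI and a ratio of 137 (24.5 to 5404). Of 20 lysosomal genes, 16 fell and none rose, led by Ctsd at 91.7 and 93.3 CPM in members and 1868 and 1728 CPM in macrophages (log2 fold -4.28 ± 0.27 SE, adjusted p = 5.14e-06) and Ctsb, another cathepsin (log2 fold -3.36, adjusted p = 2.44e-06). Fc receptors and their adaptors fell in 6 of 9, with the high-affinity IgG receptor Fcgr1 at 16.8 and 15.5 CPM in members and 194 and 198 CPM in macrophages (log2 fold -3.59 ± 0.47 SE, adjusted p = 0.000379). Pattern recognition receptors fell in 6 of 7, and Tlr7, a sensor of single-stranded RNA, had 0 UMIs in members and was at least 11.9-fold lower. Of 17 immediate early and heat shock genes, 8 fell, among them Fos, Junb and Egr1, and Hspa8 rose.

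The Cd7-positive cells met the same rule apart from Cd7, and few genes passed the test as reported. As reported, 4 genes were higher in members (0.0767% of 5213) and 2 were lower (0.0384%), 0.115% in all, with 280 and 191 at an unadjusted p under 0.05 by edgeR and 18 and 5 called by DESeq2. Psap, the precursor of the saposins that activate lysosomal lipid hydrolases (chr10:60277627-60302597, plus strand), stood at 1775 and 1895 CPM in members and 641 and 714 CPM in Cd7-positive cells (log2 fold 1.44 ± 0.10 SE, adjusted p = 0.000123). Gda, guanine deaminase, stood at 99.2 and 126 CPM in members and 13.6 and 17.3 CPM in Cd7-positive cells (log2 fold 2.83 ± 0.39 SE, adjusted p = 0.0333), and Cstb, an inhibitor of cysteine cathepsins, at 588 and 427 CPM in members and 163 and 169.8 CPM in Cd7-positive cells (log2 fold 1.58 ± 0.22 SE, adjusted p = 0.0334). The groups did not overlap in these 3 genes. Ftl1, the ferritin light chain, was the fourth (log2 fold 0.63, adjusted p = 0.0494). Tcf4, the transcription factor that sets plasmacytoid dendritic cell identity, stood at 31.8 and 36.3 CPM in members and 145 and 193 CPM in Cd7-positive cells (log2 fold -2.30 ± 0.31 SE, adjusted p = 0.0333), and Zmynd8, a chromatin reader, was also lower (log2 fold -3.35, adjusted p = 0.0465). Without the library as a block, Tcf4, Cstb, Zmynd8 and Ftl1 missed the threshold (adjusted p = 0.0638, 0.0881, 0.0881 and 0.327), and with at least 4 UMIs asked of the gate sum Psap alone passed it. Class II genes, Clec10a, Irf8 and Flt3 did not pass the test in this comparison, and Flt3 was at log2 fold -1.20 (adjusted p = 0.472).

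The count of calls in this comparison differed between fits. The cells gated on Fscn1 carried fibroblast markers at 3133 and 18883 CPM, and 3 of 38 and 11 of 34 of them held 3 or more fibroblast-marker UMIs. Members carried the same list at 5.64 and 9.6 CPM, with 0 such cells, and the Cd7-positive cells at 92.9 and 22.5 CPM, with 1 such cell in replicate 1. There were 4 and 0 such cells among Ear2 Fn1 cells and 8 and 2 among macrophages. All groups shared 1 estimate of the spread. With all cells of 3 or more fibroblast-marker UMIs left out, an alternative chosen after seeing the data, 80 genes were higher in members (1.59% of 5028) and 32 lower (0.636%). The part of each group's removed cells was not tested. Of these genes, 77 and 29 were also called when the cDC1-like and Fscn1-gated sums were left out instead. That fit held nearly the same members and Cd7-positive cells, so it is no independent check. In CPM of the sums as reported, members and Cd7-positive cells did not overlap in 79 of the 80 and in 32 of the 32. The genes had been called on nearly the same sums, so this follows largely from the call, and the share over all genes is not given. For genes named in the next paragraphs, log2 folds, SE and adjusted p-values come from that alternative. Their CPM come from the sums as reported, which still hold the fibroblast-marker cells. These genes were chosen after their values were seen, and missed the threshold as reported unless named above.

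In that setting, members had more of several chemokine and lysosomal transcripts than the Cd7-positive cells, and most genes of both lists did not pass the test. Of 15 chemokines tested, 6 rose (Ccl6, Ccl9, Ccl17, Ccl22, Cxcl2 and Cxcl16) and none fell, with a median log2 fold of 1.61 against 0.02 over all genes. Ccl17 stood at 225 and 924 CPM in members and 4.52 and 60.4 CPM in Cd7-positive cells (log2 fold 3.89 ± 0.64 SE, adjusted p = 0.0016), and Ccl22, the other Ccr4 ligand, at 46.8 and 226 CPM in members and 13.6 and 28.8 CPM in Cd7-positive cells (log2 fold 2.60 ± 0.62 SE, adjusted p = 0.0272). The member libraries differed in Ccl17 by more than those of most genes named here, and both were above the Cd7-positive cells. Of 20 lysosomal genes, 6 rose, namely Psap, Cstb, Ctsc, Cst3, Lamp1 and Npc2, and none fell. Of 9 Fc receptor and adaptor genes, 2 rose (Fcgr2b and Fcgr3). Mgl2 stood at 713 and 1124 CPM in members and 149 and 351 CPM in Cd7-positive cells (log2 fold 1.90 ± 0.31 SE, adjusted p = 0.0016), Mrc1, the mannose receptor, at 76.8 and 100.2 CPM in members and 18.1 and 25.9 CPM in Cd7-positive cells (log2 fold 1.95 ± 0.43 SE, adjusted p = 0.0139), and Fcgr3, a low-affinity IgG receptor, at 59.9 and 105 CPM in members and 4.52 and 11.5 CPM in Cd7-positive cells (log2 fold 3.25 ± 0.55 SE, adjusted p = 0.00178). Lyz2, the myeloid lysozyme, stood at 1080.2 and 1477 CPM in members and 506 and 549.6 CPM in Cd7-positive cells (log2 fold 1.45 ± 0.15 SE, adjusted p = 9.45e-06).

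The genes that were lower in members included several of early or circulating cells. Ly6c2, the classical monocyte antigen, stood at 18.7 and 8.64 CPM in members and 131 and 69.1 CPM in Cd7-positive cells (log2 fold -3.06 ± 0.64 SE, adjusted p = 0.00977). Plac8, which is abundant in monocytes and plasmacytoid cells, stood at 764 and 469.8 CPM in members and 2579.5 and 1632 CPM in Cd7-positive cells (log2 fold -1.78 ± 0.35 SE, adjusted p = 0.00574). The Cd7-positive cells were above members in both libraries for both genes. Ifitm1 stood at 101 and 418 CPM in members and 538 and 1816 CPM in Cd7-positive cells (log2 fold -2.20 ± 0.30 SE, adjusted p = 0.000392), and Lag3, an inhibitory receptor best known from T cells, at 5.62 and 8.64 CPM in members and 104 and 71.9 CPM in Cd7-positive cells (log2 fold -3.55 ± 0.54 SE, adjusted p = 0.000829). Gpr183 and Cyp7b1, an enzyme of the oxysterol pathway from which Gpr183 ligands are made, were both lower, at log2 folds of -1.78 and -4.14. Markers of plasmacytoid cells summed to 265 and 240.0 CPM in members and 943 and 442 CPM in Cd7-positive cells, and those of classical monocytes to 1110.3 and 736 CPM and 3116 and 1916 CPM. Their part in these differences was not tested.

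**Figure D3:**
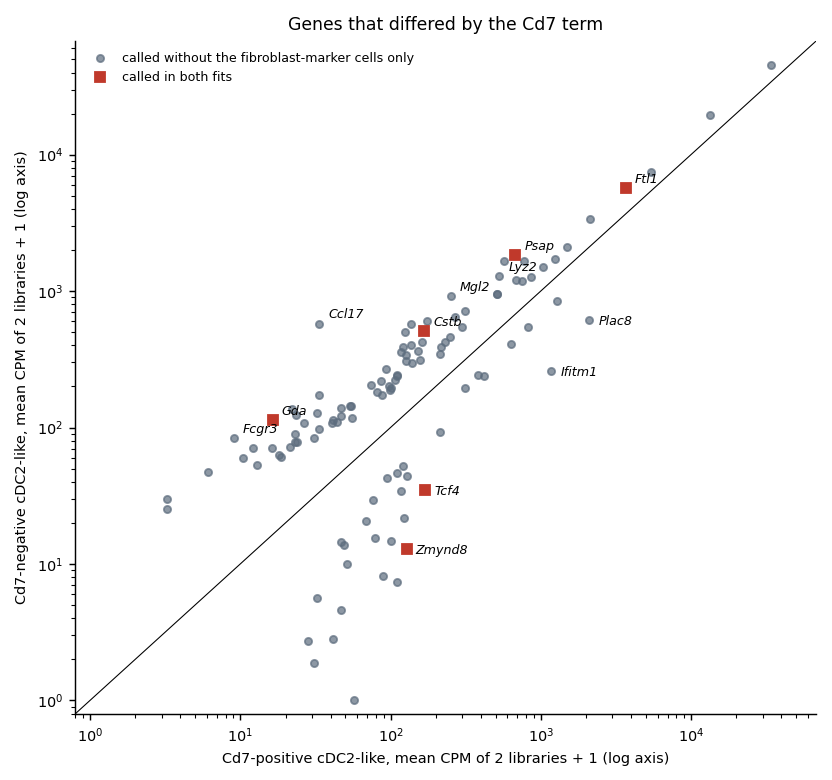
Mean CPM over both libraries of the 112 genes called between members and Cd7-positive cells with fibroblast-marker cells left out. Axes are logarithmic, with the line of equal level. The CPM are those of the sums as reported, which still hold the fibroblast-marker cells. Red marks genes also called as reported, and labelled genes above the line, such as Ccl17 and Mgl2, had higher means in members.

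Ear2, a ribonuclease gene that defines the Ear2 Fn1 cells, was itself spread unevenly over members. It had a UMI in 83 of 166 members (40 of 88 and 43 of 78), in 12 of 80 Cd7-positive cells, and in 11.4% and 8.62% of macrophages, at the median depths given above. The contrast with Cd7-positive cells was repeated without the members that held 2 or more UMIs of Ear2 plus Retnla, which left 48 and 38 members. In the fit of all groups edgeR then called 0 genes in either direction, with 172 higher and 124 lower at an unadjusted p under 0.05. The 6 genes called as reported kept their direction, with log2 folds of 0.84 for Psap, 1.02 for Cstb, 2.26 for Gda, 0.55 for Ftl1, -2.55 for Tcf4 and -2.79 for Zmynd8, against 1.44, 1.58, 2.83, 0.63, -2.30 and -3.35 as reported. DESeq2 was not run on that setting. With the fibroblast-marker cells left out too, 19 genes were higher and 7 lower, and Psap was among those higher. Fewer members enter these fits, and the part of their number was not tested. Both settings were chosen after seeing the data.

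The members differed among themselves along the same genes. These splits are descriptions, given as unscaled CPM, and have no test. Members with 2 or more Ear2 UMIs had Mgl2 at 1207 and 1409 CPM, and those with 0 had it at 459.9 and 674 CPM. The same members had Lyz2 at 2123 and 1896 CPM against 541 and 756 CPM, and Ccl17 at 498 and 1216 CPM against 108 and 259.7 CPM. Plac8 ran the other way, at 103 and 75.8 CPM against 1174 and 847 CPM, as did Klrd1, at 68.7 and 139 CPM against 362 and 331 CPM, and H2-Oa, at 143 and 114 CPM against 313 and 358 CPM. In both libraries, then, the Ear2-bearing members had more Mgl2, Lyz2 and Ccl17 and less Plac8, Klrd1 and H2-Oa.

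Split by Plac8, 61 of 166 members had a UMI of it (33 and 28), and 66 of 80 Cd7-positive cells did. Members with 2 or more Plac8 UMIs had Irf8 at 148 and 112 CPM against 13.2 and 22.8 CPM in those with 0, Klrd1 at 433 and 402 CPM against 188 and 137 CPM, and Psap at 1305 and 1297 CPM against 2119.8 and 1996 CPM.

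Only the split by Klrd1 was tested, in a fit of 14 sums. Members with a Klrd1 UMI were 49 of 88 and 46 of 78. Of 4435 genes tested, 0 were higher with a Klrd1 UMI and 2 were lower (0.0451%), with 146 and 172 at an unadjusted p under 0.05 by edgeR and 0 and 5 called by DESeq2. Lyz2 stood at 601 and 636 CPM with a Klrd1 UMI and at 1774 and 2673 CPM without (log2 fold -1.82, adjusted p = 0.00383), and Psap was lower too (log2 fold -0.90). The 2 sets of members did not overlap in Lyz2. Without the library as a block neither gene passed (adjusted p = 0.0516 and 0.167). Klrd1 is a gate gene, so members without it entered through Cd209a or Mcemp1.

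**Figure D4:**
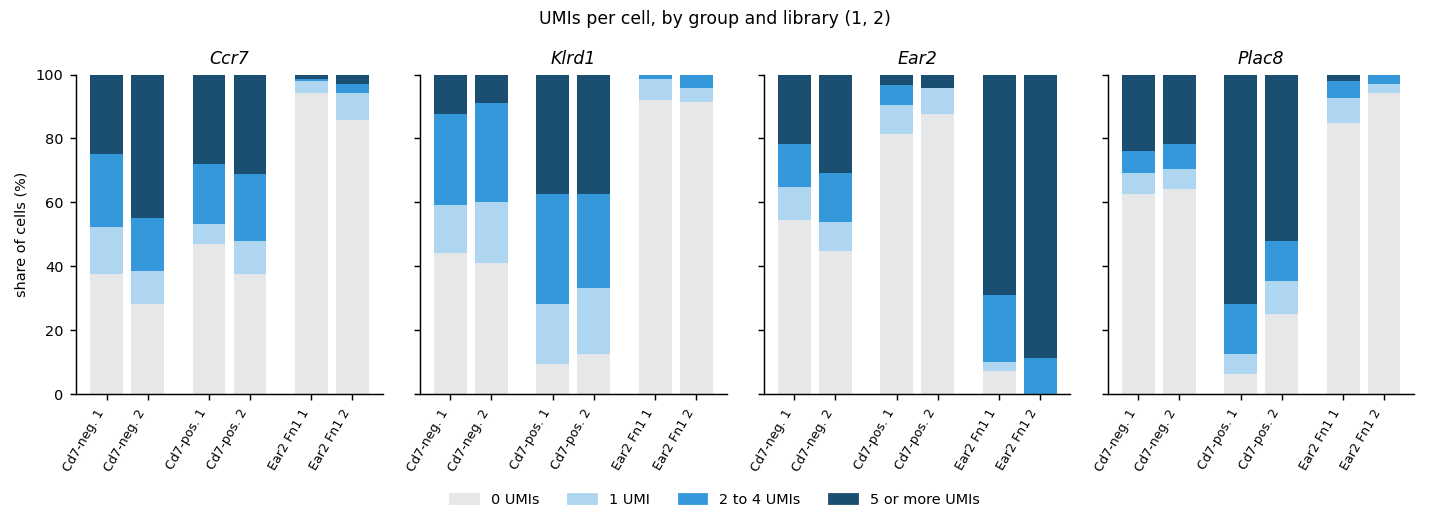
Share of cells with 0, 1, 2 to 4 and 5 or more UMIs of Ccr7, Klrd1, Ear2 and Plac8 in members, Cd7-positive cells and Ear2 Fn1 cells, with 1 stacked bar per group and library. Ccr7 has a UMI in 62.5% and 71.8% of members, and Plac8 in fewer members than Cd7-positive cells.

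Ccr7 had a UMI in 111 of 166 members (55 of 88 and 56 of 78), 2 or more in 90 and 5 or more in 57. It had a UMI in 47 of 80 Cd7-positive cells, 18 of 209 Ear2 Fn1 cells, and 3.34% and 4.21% of macrophages. After thinning each cell to 2000 UMIs, 44.3% and 56.4% of members still had a Ccr7 UMI. Fscn1, which bundles actin in mature dendritic cells and on which the gate had a ceiling, had 1 UMI in 2 members and 0 in the rest. Without Fscn1, the 7 other mature dendritic cell markers summed to 926 and 1485 CPM in members, most of it Ccr7, and to 16705 and 7544 CPM in the Fscn1-gated cells. Members with 2 or more Ccr7 UMIs had Il1r2 at 752 and 1286 CPM against 382 and 419.8 CPM in those with 0, Il4i1, an amino acid oxidase of mature dendritic cells, at 60.2 and 80.7 CPM against 0 and 5.83 CPM, and Cd83 at 1019 and 1054 CPM against 541 and 665 CPM. Their Lyz2 was lower, at 617 and 1094 CPM against 1723 and 2099 CPM. Il1b, the interleukin-1 beta gene, had a UMI in 153 of 166 members. Ccl17 had a UMI in 10 of 88 and 23 of 78 members.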

How the data were processed

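Messenger RNA was counted in single cells of 2 mouse libraries, made with the 10x Genomics 3' kit per the labels. Each library's file holds unnormalized UMI counts as the authors deposited them, over 737280 barcodes and 27998 genes, processed with Cell Ranger 2.2.0 on mm10 per the submitters' processing notes. Which annotation release and which aligner settings they used is not given in the sources used here. Gene positions came from GENCODE M21 on GRCm38, and promoter sequences from RefSeq.

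Of 2045 and 1299 barcodes with at least 2000 UMIs, 87 and 84 were removed for over 10% mitochondrial UMIs. Groups were gated as described in the report, and no authors' cell annotation was used. Scrublet in scanpy 1.11.5 scored doublets, and leaving out the top 0.8% per 1000 cells was an alternative that removed no member. Raw counts were summed per library and group for 6 groups (12 sums, 5 residual degrees of freedom, common biological coefficient of variation 0.19) and tested by quasi-likelihood in edgeR 4.0.16 (R 4.3.3) after filterByExpr and TMM scaling. The library was a block, because all groups of 1 library share a droplet run, and p-values were adjusted by Benjamini-Hochberg over 5213 genes. On simulated data of 4665 genes, changes of 2 on the log2 scale were recovered in 85%, 93% and 80% of genes in the Ear2 Fn1, macrophage and Cd7-positive comparisons, and changes of 1 in 40%, 38% and 29%. The simulation gave every gene the common coefficient of variation and changed only genes above a minimum level. Recovery in the data, where the spread differs between genes, may be different. DESeq2 1.42.0 was an alternative. Thinned shares used 2000 UMIs per cell. Intervals are exact binomial at 95%.

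Per comparison, named genes were up to 2 of the largest called folds from each of 18 gene lists, the 6 largest rises and 6 largest falls among called genes (50 CPM or more in the group where they were higher), and 14 genes in any case, up to 45. Where the rule gave more than 45, list genes of smaller fold were dropped. Marker lists numbered 19. The members and lists were chosen with earlier results of these data known, so counts over lists describe and are not independent support. Further list members, and genes in splits, are named outside that rule. Some items the rule named are not reported here.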

Additional observations from a re-analysis of the deposited data

How the results depend on the processing

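No called gene that the naming rule chose changed direction under any alternative in which it was tested. The direction of other called genes was not compared between settings. Counts are given as genes that rose and fell in members. Against Ear2 Fn1 cells (321 and 219 as reported), the counts were 433 and 417 with no filter on low counts, and 211 and 166 without the replicate block. In that comparison they were 209 and 189 with gates after thinning (1766 genes tested) and 163 and 209 with sums after thinning (2100 genes tested, against 5213 as reported), without members of 2 or more Ccr7 UMIs the counts were 74 and 45, and a fit of 4 groups gave 611 and 489. Without fibroblast-marker cells they were 584 and 450, and with Ear2-bearing members also left out 490 and 449. Against macrophages (612 and 611), thinned gates gave 261 and 345, thinned sums 312 and 394, the Ccr7 exclusion 348 and 340, and the fit of 4 groups 940 and 926. Against Cd7-positive cells (4 and 2), DESeq2 gave 18 and 5, no filter 111 and 27, no replicate block 2 and 0, a gate of at least 4 UMIs 1 and 0, the fit of 4 groups 96 and 33, the exclusion of Ear2-bearing members 0 and 0, that of fibroblast-marker cells 80 and 32, and both together 19 and 7. Thinned sums gave 12 and 3 there. For the Klrd1 split (0 and 2), no filter gave 5 and 29, DESeq2 5 falls and the fit without the replicate block 0 falls. The member share was 2.81% and 3.46% with thinned gates, and 5.57% in replicate 1 among cells of 4000 or more UMIs. Settings that leave out cells by Ccr7, Ear2 or fibroblast markers, that thin the sums or that fit 4 groups were chosen after seeing the data, as were all settings of the Klrd1 split that were run. Leaving out replicate 1 or replicate 2 gives folds with no test. The cause of these differences was not tested. The comparison with Cd7-positive cells and the Klrd1 split could not be fitted with gates applied after thinning, since a group had under 20 cells in a library. With 2 libraries, changes of 1 on the log2 scale were mostly missed on simulated data in which all genes had the same spread.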

Other observations

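Other gene lists are given here by their counts. Over all genes tested against Ear2 Fn1 cells, 6.16% rose and 4.2% fell, and a list count near those shares is not a result about the list. In that comparison, 3 of 11 S100 and annexin genes fell (S100a10, S100a13 and Anxa2), the opposite direction to S100a10 and Anxa2 against macrophages. Of 14 glycolysis and hypoxia genes, Ndrg1 rose and Adam8 fell. Of 17 immediate early and heat shock genes, Jun, Ier2 and Hspa8 rose. The decoy receptor Il1r2 and Il1b rose while Il1a and Il6 fell among 16 cytokine and interleukin-1 genes, so members had more Il1b and less Il1a than Ear2 Fn1 cells. Of 7 pattern recognition receptors, Clec4n rose and Cd14 fell. Mrc1 alone fell of 19 macrophage genes. Of 15 cDC2 surface genes 4 rose (Dpp4, Clec10a, Ltb and Tnfsf9) and 2 fell (Clec4a2 and Itgam). Of 9 NK-type genes 3 rose and 1 fell, and of 16 chemokines 2 rose and 2 fell. The other genes of the cDC2 surface, NK-type and chemokine lists did not pass the test.

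Against macrophages, 11.7% of all genes tested rose and 11.7% fell, so the first 3 lists here lie near or below that background in each direction. Of these, 1 of 16 interferon genes fell (Bst2) and none rose, 2 of 14 glycolysis and hypoxia genes rose (Hilpda and Ndrg1), and 1 of 11 class I genes fell (B2m). Among 16 cytokine genes, 3 rose (Il1r2, Il1b and the growth factor Areg) and 7 fell, among them Il10, Tnf and Igf1. Of 13 monocyte genes 3 rose (Plac8, Ifitm6 and Ms4a4c) and 6 fell. Of 15 dendritic cell transcription and growth genes 5 rose and 2 fell (Irf8 and Tcf4). Of 15 cDC2 surface genes 5 rose (Dpp4, Cd24a, Mgl2, Clec10a and Ltb) and 4 fell (Sirpa, Clec4a2, Clec12a and Cx3cr1). In members, markers of cDC1 other than the gate genes Xcr1 and Clec9a summed to 293 and 352 CPM, of innate lymphoid cells to 78.9 and 117 CPM (led by Il7r), of endothelial cells to 9.39 and 6.4 CPM, of cycling cells, without the 4 in the gate, to 80.8 and 59.2 CPM, and of the Ear2 Fn1 cells, without Ear2, Fn1 and Retnla, to 9.39 and 25.6 CPM.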
